A study of Mus musculus with 8 samples.

Results

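The genes that encode the proteins of the cytosolic ribosome were followed through the mammary epithelium of mid-pregnant mice. Members were the protein-coding genes of the deposited table named Rpl or Rps with a number, together with the stalk genes Rplp0, Rplp1 and Rplp2 and with Rpsa. Names that begin with Rps6k (kinases), contain bp or mark a pseudogene were left out. This gave 85 of the 55933 genes in the table, 52 of the large subunit and 33 of the small subunit. They lie on 19 chromosomes.

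Ribosomal proteins are made in the cytoplasm, imported into the nucleolus and assembled there on ribosomal RNA, and most are present once in each ribosome, so that cells normally hold their mRNAs in fixed proportion. Many of these mRNAs begin with a C followed by a run of pyrimidines, the 5′ terminal oligopyrimidine (TOP) motif, through which mTORC1 signalling sets how much of the mRNA is translated. During pregnancy the alveolar epithelium prepares for the secretion of large amounts of milk protein.

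Bulk RNA-seq was performed on epithelial cells from 4 control and 4 cKO females at pregnancy day 14.5, 1 mouse and 1 library each. The cKO mice were *K14-rtTA;teto-Cre;Bmpr1a fl/fl*, in which doxycycline, given with sucrose in the drinking water until collection, switches on Cre under the K14 promoter of basal and myoepithelial cells and deletes the BMP receptor gene *Bmpr1a*. Controls were littermates, which the sample labels call WT, and their own alleles and their doxycycline are not given in the sources used here. No age is given for the sequenced mice, while mice at this stage used for flow cytometry were 10 to 12 weeks old. The labels give the strain of all 8 mice as C57BL/6, and cells were freed with collagenase and hyaluronidase and cleared of red cells, so that all epithelial layers and any other surviving cells entered each library.

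The expression values are FPKM, which divide reads by gene length and by library size, and the whole reads behind them were recovered. Between 16123108 and 19896988 reads lay on genes per library. Libraries of the same group were distinct, with a chi-square per degree of freedom of 8.92 or more in every pair.

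*Bmpr1a*, the targeted gene (chr14:34410734-34503341, GRCm38), was at 10.6, 11.7, 8.74 and 9.52 FPKM in control libraries 1 to 4 and at 12, 12, 10.2 and 10.4 FPKM in cKO libraries 1 to 4. The groups overlapped, at 10.1 ± 1.28 against 11.2 ± 1.01 (SD, n = 4, exact permutation test, two-sided, p = 0.257). The libraries labelled cKO did not have the lower level. An mRNA value over the whole gene and all cells may miss the loss of part of the gene in a single layer. Directions below are therefore given for the libraries labelled cKO. At this stage the paper reports efficient deletion of BMPR1a in the myoepithelium, shown by western blot, and higher *Wap*, *Lalba* and *Csn2* mRNA by qRT-PCR. All 7 milk genes followed below had log2 fold changes above 0 in the libraries labelled cKO. *Lalba* did not pass the test, at 0.84 (limma unadjusted p = 0.107, adjusted p = 0.419).

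The preparation carried its defining markers. The luminal keratin *Krt8* averaged 1763 FPKM in control and 1780.2 FPKM in cKO libraries, and the myoepithelial genes *Acta2* and *Krt14* averaged 825 and 753 FPKM in control and 953 and 577 FPKM in cKO libraries (log2 fold change 0.21, limma adjusted p = 0.607, and −0.39, unadjusted p = 0.0198, adjusted p = 0.209). All 9 luminal and all 9 myoepithelial markers examined passed the filter on low values, a mean of 0.5 FPKM over the 8 libraries. Other cells were present too, with *Lyz2* of macrophages at 161 ± 32.8 FPKM in control and 115 ± 28.3 FPKM in cKO libraries and *Col3a1* of fibroblasts at 238 ± 96.0 and 175 ± 65.2 FPKM. In a bulk library, fewer cells of a type and less RNA per cell cannot be told apart.

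The ribosomal protein genes were among the most abundant mRNAs of this tissue. Of the 85, 34 ranked within the top 100 of all genes by mean FPKM, 59 within the top 200 and 74 within the top 500. The median over the 82 members that passed the filter was 386 FPKM, against 4.67 FPKM over the 15143 genes that passed it. The small subunit had a median of 419 FPKM and the large subunit one of 336 FPKM. Members are short, with a median gene length of 1775 bases against 3672 bases over all genes fitted.

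Rplp1, an acidic protein of the stalk that recruits elongation factors to the large subunit, had the highest mean, 2901 FPKM, and ranked as gene 5 of the table. Its values were 2568, 2531, 3285 and 3179 FPKM in control libraries 1 to 4 and 2529, 2508, 3238 and 3371 FPKM in cKO libraries 1 to 4. Replicates 3 and 4 were higher than replicates 1 and 2 in both groups, and the groups overlapped. Rplp0, the base of the same stalk, followed among large-subunit members at 1741 FPKM, then Rpl36 at 1254, Rpl4 at 1066 and Rpl19 at 943 FPKM.

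In the small subunit the highest mean belonged to Rps3a1, at 1688 FPKM, ahead of Rps15 at 1401, Rps27rt at 1083, Rps6 at 939.9 and Rps4x at 849 FPKM. Rps6 is the ribosomal substrate of S6 kinase and a common readout of mTORC1 activity. It lay at 808, 799, 1011 and 1012 FPKM in control libraries 1 to 4 and at 872, 953, 995 and 1068 FPKM in cKO libraries 1 to 4. Control libraries 1 and 2 were the lowest, and the groups overlapped.

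At the other end, 8 fitted members had a mean under 100 FPKM. Rpl10l, a copy of Rpl10 known from the testis, had no read in any of the 8 libraries and was not detectable at this depth. Rpl39l, likewise a testis-enriched copy, had 1 to 7 reads per library (0.073 to 0.486 FPKM), and Rpl3l, which replaces Rpl3 in striated muscle, had 1 to 6 reads (0.0351 to 0.189 FPKM). These 3 did not pass the filter on low values, and all 33 small-subunit members did.

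The other paralog copies were expressed beside their parents at very different ratios. Rpl22l1 averaged 29.8 FPKM beside Rpl22 at 142 FPKM, Rpl7l1 30.9 FPKM beside Rpl7 at 529.9 FPKM, and Rpl36al 1.48 FPKM, from 26 to 46 reads, beside Rpl36a at 271 FPKM. Rps27l, a copy of Rps27 known as a target of p53, averaged 125 FPKM beside Rps27 at 326 FPKM. Rps27rt, a retrotransposed copy with the same coding sequence as Rps27, was listed at 1083 FPKM, above its parent. The 13 members whose names end in a letter or a letter and a number, such as Rpl7a and Rps3a1, are proteins of their own in most cases and ranged from 24.8 FPKM (Rpl13a) to 1688 FPKM (Rps3a1). On the same strand, Gm49383 overlaps Rpl36al and Gm45713 overlaps Rpl13a, with 0 reads each. How shared reads were counted is not given, so the levels of Rpl36al and Rpl13a are uncertain.

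Reads on all 85 members made up 5.85, 5.76, 7.15 and 6.96% of the reads on genes in control libraries 1 to 4 and 5.90, 6.17, 6.76 and 6.85% in cKO libraries 1 to 4. The Wilson 95% interval of each share was at most 0.0249 percentage points wide, and it covers counting error only. Replicates 3 and 4 had the higher shares in both groups. The group means were 6.43 ± 0.727% for the controls and 6.42 ± 0.456% for the cKO mice (SD, n = 4), a difference far smaller than the spread between mice. The large subunit took 3.67 ± 0.437% and 3.65 ± 0.25%, and the small subunit 2.76 ± 0.29% and 2.77 ± 0.207%.

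**Figure D1:**
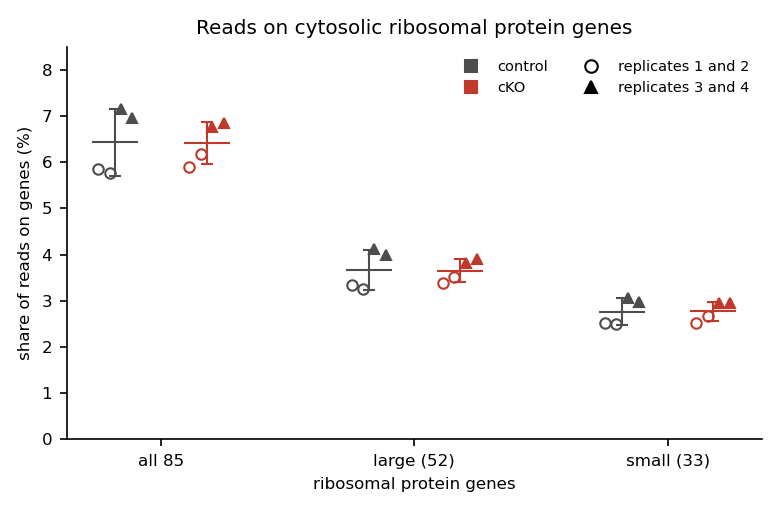
Percent of the reads on genes that lay on ribosomal protein genes in each library, for all 85 members and for each subunit. Points are mice, with replicates 1 and 2 as circles and replicates 3 and 4 as triangles, and lines are the mean ± SD of 4. In both groups all triangles sit above all circles, and the group means for all 85 are 6.43 and 6.42%.

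The family moved together from library to library. Each member's log2(FPKM + 1) was set against its own mean over the 8 libraries, and the median deviation of the 82 members was −0.18, −0.21, 0.14 and 0.13 in control libraries 1 to 4. In cKO libraries 1 to 4 it was −0.11, −0.06, 0.11 and 0.20. Over all 15143 genes the same median lay between −0.01 and 0.01 in each library, where the median-of-ratios scaling of the FPKM holds it near 0. Of the 82 members, 7, 2, 75 and 79 lay above their own mean in control libraries 1 to 4. In cKO libraries 1 to 4 it was 11, 24, 76 and 77.

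Replicates 3 and 4 exceeded replicates 1 and 2 by a median of 0.29 on the log2 scale over the members, and 80 of 82 were higher there, against a median of 0.01 and 52.1% of all genes. The median was 0.31 within the controls and 0.26 within the libraries labelled cKO, and 0.29 for either subunit. Rpl34 (−0.24) and Rps27rt (−0.53) were the 2 members that went the other way. The labels give no batch, the split by replicate number was known from earlier results of these data, and no test was made of it.

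Some other lists of the translation machinery were higher in replicates 3 and 4 as well, by less, and others were not. The 76 mitochondrial ribosomal protein genes fitted had a median of 0.21 for replicates 3 and 4 over 1 and 2, with 71 of 76 higher, and 16 elongation factors and other genes with TOP mRNAs had a median of 0.17, with 14 of 16 higher. Genes of ribosome assembly had a smaller median, 0.06, with 38 of 52 higher. Those of RNA polymerase I had a median of 0.00, with 8 of 15 higher. Other initiation and termination factors had one of −0.01, with 7 of 14 higher. Of all genes 52.1% were higher. Luminal markers (0.23), myoepithelial markers (0.27), milk genes (0.43), adipocyte markers (0.32) and T cell markers (0.24) also had medians above 0 in replicates 3 and 4 over 1 and 2, fibroblast markers (−0.21), macrophage markers (−0.20) and endothelial markers (−0.19) had medians under 0, and B cell (0.05) and erythroid markers (−0.06) lay near it. Whether these cell types had a part in the level of the ribosomal protein genes was not tested.

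**Figure D2:**
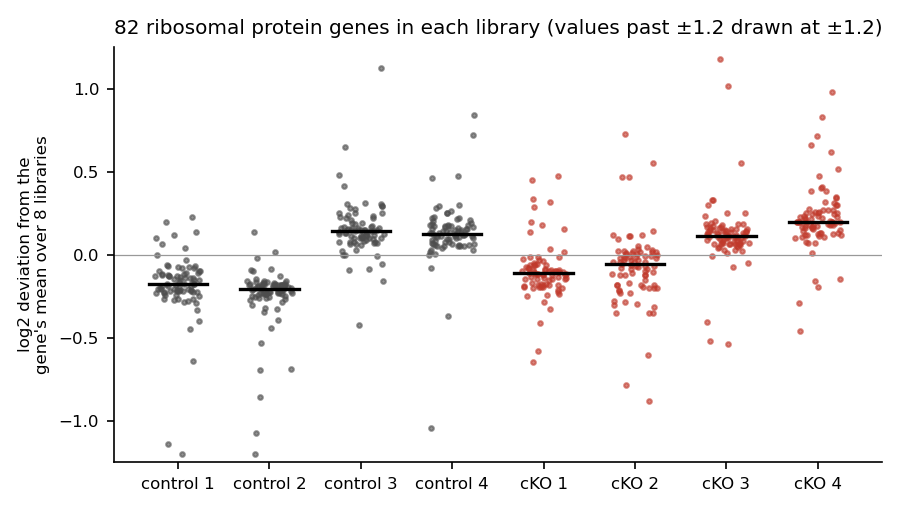
Deviation of each of the 82 fitted ribosomal protein genes from its own mean over the 8 libraries, on the log2(FPKM + 1) scale, with the median of each library as a line. Control libraries 1 and 2 and cKO libraries 1 and 2 have medians under 0, and the other 4 libraries have medians from 0.11 to 0.20.

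The comparison of the genotypes asks whether ribosomal protein mRNA differs in an epithelium in which milk genes are raised. No member passed the test: limma with Benjamini-Hochberg adjustment over all genes fitted called 0 of 82 at an adjusted p under 0.05, where 0.892% of all genes were called (135 of 15143). At an unadjusted p under 0.05 limma had 3 members higher in the libraries labelled cKO, where the share of all genes was 8.85%, and 0 lower, where it was 7.53%. On the recovered reads, limma-voom also called 0 at an adjusted p under 0.05 (1.77% of all genes), with 4 higher (5.62%) and 0 lower (12.3%) at an unadjusted p under 0.05. The 4 libraries of each group overlapped for every fitted member, while 6.1% of all genes were higher and 4.6% lower in the libraries labelled cKO without overlap.

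Log2 fold changes, libraries labelled cKO over control on the log2(FPKM + 1) scale, had a median of 0.065 over the members, 0.068 for the large and 0.059 for the small subunit, against 0.001 over all genes. They were above 0 for 62 of 82 members, 75.6% against 50.2% of all genes. With 1 library left out, that count and the median were 48 and 0.021 without control replicate 1, 42 and 0.004 without control replicate 2, 50 and 0.046 without cKO replicate 3 and 44 and 0.008 without cKO replicate 4, and they were 70 to 72 and 0.093 to 0.123 without 1 of the other 4. Where libraries were scaled to the same FPKM sum, to library totals or by limma-voom, 42 of 82 (51.2%) were above 0 in each, against 38.2, 38.6 and 38.7% of all genes. Those scalings lowered all genes, to medians of −0.048, −0.046 and −0.06, along with the members, to medians of 0.003, 0.005 and 0.005, and 57, 57 and 62 of the 82 members lay above the median of all genes, where 61 did as reported, a count chosen after seeing the data. Scaling to the FPKM sum without milk genes gave 53 of 82 above 0 and a median of 0.039, against 45.0% and −0.02 over all genes. Among the 448 genes with a mean of 100 FPKM or more, which include 74 members, the median was 0.01 and 51.8% were above 0. Within replicates 1 and 2 the median of the members was 0.11 with 61 of 82 above 0, and within replicates 3 and 4 it was 0.02 with 51 of 82.

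The values were narrow for most members: 71 of 82 lay within 0.2 of 0, 86.6% against 74.5% of all genes, and the standard error had a median of 0.13 against 0.1. The range ran from −0.26 (Rpl21, −0.02 after its reads were summed with those of near-identical copies) to 1.38 (Rpl35a, 0.59 after summing). The members named above for their high level, other than Rps27rt, had log2 fold changes from −0.12 (Rps15) to 0.10 (Rps6), with Rplp1 at 0.01, Rplp0 at −0.05, Rpl36 at −0.10, Rpl4 at 0.07 and Rps3a1 at 0.09.

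**Figure D3:**
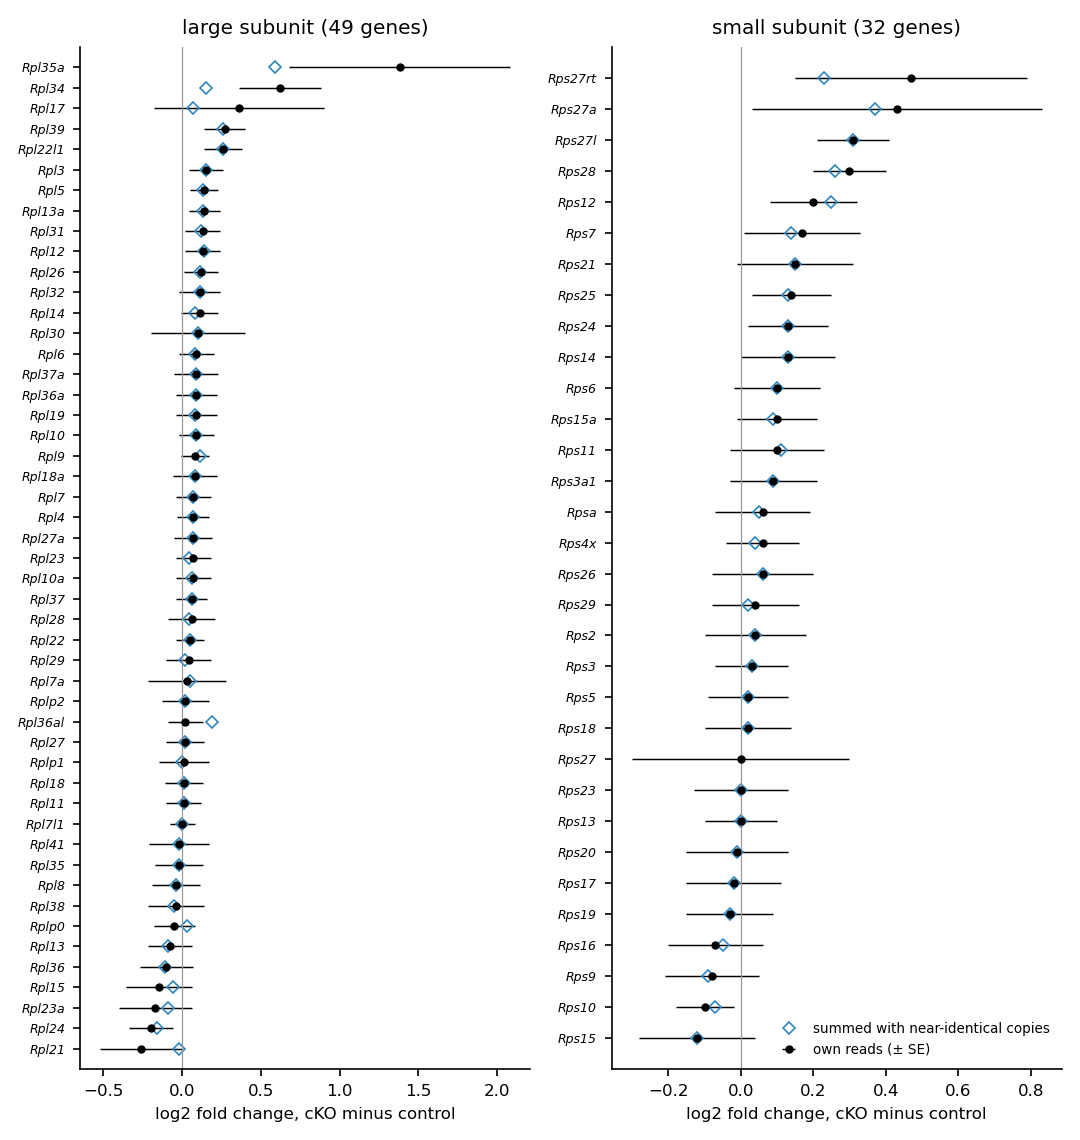
Log2 fold change, cKO over control libraries, of 81 of the 82 fitted ribosomal protein genes from their own reads (points, ± SE) and after their reads were summed with those of near-identical copies (diamonds). Most points lie within 0.2 of 0, none passed the adjusted test, and the diamonds of Rpl34, Rpl17 and Rpl35a lie nearer to 0 than their points. Over all 82 members 62 values lie above 0, 75.6% against 50.2% of all genes.

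Rps28, a protein of the small subunit, had the lowest adjusted p of the members. Its values were 119, 113, 136 and 144 FPKM in control libraries 1 to 4 and 161, 144, 155 and 171 FPKM in cKO libraries 1 to 4. Control library 4 and cKO library 2 met at 144 FPKM, and the other 3 libraries labelled cKO lay above every control. The log2 fold change was 0.30 (SE 0.1, limma adjusted p = 0.173), and its exons overlap those of Kank3 on the opposite strand, which has 4338 reads beside its 34632 over the 8 libraries. If the reads were counted without regard to strand, which is not stated, some could belong to the other gene.

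Rps27l was at 101, 100.4, 117 and 130.3 FPKM in control libraries 1 to 4 and at 139, 123, 148 and 145 FPKM in cKO libraries 1 to 4. The groups overlapped through control library 4 and cKO library 2. Its log2 fold change was 0.31 (SE 0.1, limma adjusted p = 0.189), and it has no near-identical copy in the annotation. Both Rps28 and Rps27l had an unadjusted p under 0.05 in all 23 alternatives, and an adjusted p under 0.05 was reached once, by Rps27l at 0.0428, in the fit with a block that parts replicates 1 and 2 from 3 and 4.

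Rpl22l1 gave 23.2, 24.4, 31.2 and 29.5 FPKM in control libraries 1 to 4 and 34.0, 29.0, 37.3 and 29.8 FPKM in cKO libraries 1 to 4, a log2 fold change of 0.26 (limma adjusted p = 0.313) with overlapping groups. Its parent Rpl22 differed by 0.05. Rpl39, a short protein that lines the exit tunnel, gave 272, 285, 307 and 331 FPKM against 302, 354, 344 and 454 FPKM, a log2 fold change of 0.27 (limma adjusted p = 0.333). The highest value was that of cKO library 4, and cKO library 1 lay within the controls. Rps12 differed by 0.20 (limma adjusted p = 0.451) and holds 53.4% of the reads of its group of near-identical copies.

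The reads of some members are hard to assign. Ribosomal protein genes have many processed pseudogenes, reverse-transcribed copies of their mRNA, and a read that fits a parent and a copy equally well can be placed on either or dropped. Coding sequences were compared with all annotated transcripts by BLAST, and 76 of the 85 members had at least 1 other gene at 95% identity or more over 80% or more of the coding sequence. There were 561 such pairs, 528 of them with a processed pseudogene, and Rpl21 alone had 57. Most members held most of the counted reads: 54 had 90% or more of the reads counted on their group. Dropped reads do not enter this share, so it cannot show whether a member's level is complete.

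For 5 members the share was under 50%. Rps10, a protein of the head of the small subunit, held 4.44% of its group's reads, with 206 to 283 reads per library beside 3942 to 6544 on Rps10-ps2 on chromosome 16. Rpl17 held 28.4%, Rpl24 32.5%, Rpl21 44.0% and Rps27 45.4%. The levels of these genes are uncertain, and so are the 6.24 FPKM of Rps10 and the 8.62 FPKM of Rpl24, which stand far below the family's median. Rps10 also had the lowest coefficient of variation over the controls, 2.12%, and its log2 fold change was −0.10 from its own reads and −0.07 from the sum.

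Opposite read counts on gene and copy were clearest for Rpl34. It had 7672, 4045, 4710 and 5460 reads in control libraries 1 to 4 and 10122, 8608, 4512 and 11543 reads in cKO libraries 1 to 4. Its pseudogene Rpl34-ps1 (chr6:71124610-71124963), 99.4% identical, had 639, 4262, 5095 and 5602 reads in the controls and 709, 528, 4702 and 600 reads in the libraries labelled cKO. The libraries parted into 2 states. Control library 1 and cKO libraries 1, 2 and 4 had few reads on the pseudogene and more on Rpl34, and the other 4 libraries had about as many on the pseudogene as on the gene. The sum with all copies was 8583, 8452, 9989 and 11277 against 11141, 9419, 9393 and 12437 reads. The log2 fold change of Rpl34 was 0.62 (SE 0.26, limma adjusted p = 0.282) from its own reads and 0.15 (adjusted p = 0.492) from the sum, a step chosen after seeing the data.

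Rpl30 and its pseudogene Gm12191 (chr11:49678710-49679057, 99.7% identical) parted the libraries along another line. Gm12191 had 2506 reads in control library 2 and 3184 in cKO library 1, and 261 to 395 in each of the other 6. Rpl30 was lowest in those same 2 libraries, at 74.8 and 87.0 FPKM against 142 to 180.1 FPKM in the others. Its log2 fold change was 0.10 with and without the copies. Which mice share a litter is not given, and whether the mice differ in sequence at these genes was not tested.

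Rps27 and Rps27rt, 100% identical in coding sequence, also had opposite levels in most libraries. Whether reads of the gene were placed on the copy was not tested. Rps27 had 4110, 3864, 6447 and 10024 reads in control libraries 1 to 4 and 4688, 4637, 7529 and 6295 in cKO libraries 1 to 4. Rps27rt had 7183, 7273, 5737 and 3466 reads in the controls and 9302, 8710, 4225 and 11215 in the libraries labelled cKO. Rps27rt was high where Rps27 was low, with cKO library 4 high for the copy and intermediate for the parent. Rps27rt alone had a log2 fold change of 0.47 and Rps27 alone one of 0.00, and the sum gave 0.23 (limma adjusted p = 0.364).

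Rpl17 was at 81.8, 85.7, 284 and 325 FPKM in control libraries 1 to 4 and at 249, 98.1, 228 and 323 FPKM in cKO libraries 1 to 4. Control libraries 1 and 2 and cKO library 2 stood at under 100 FPKM and the rest at over 200 FPKM. Its pseudogene Rpl17-ps10 had 9421, 8643 and 8448 reads in those 3 libraries and 5457 to 6737 in the others. The log2 fold change was 0.36 (limma adjusted p = 0.785) and 0.07 after summing.

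**Figure D4:**
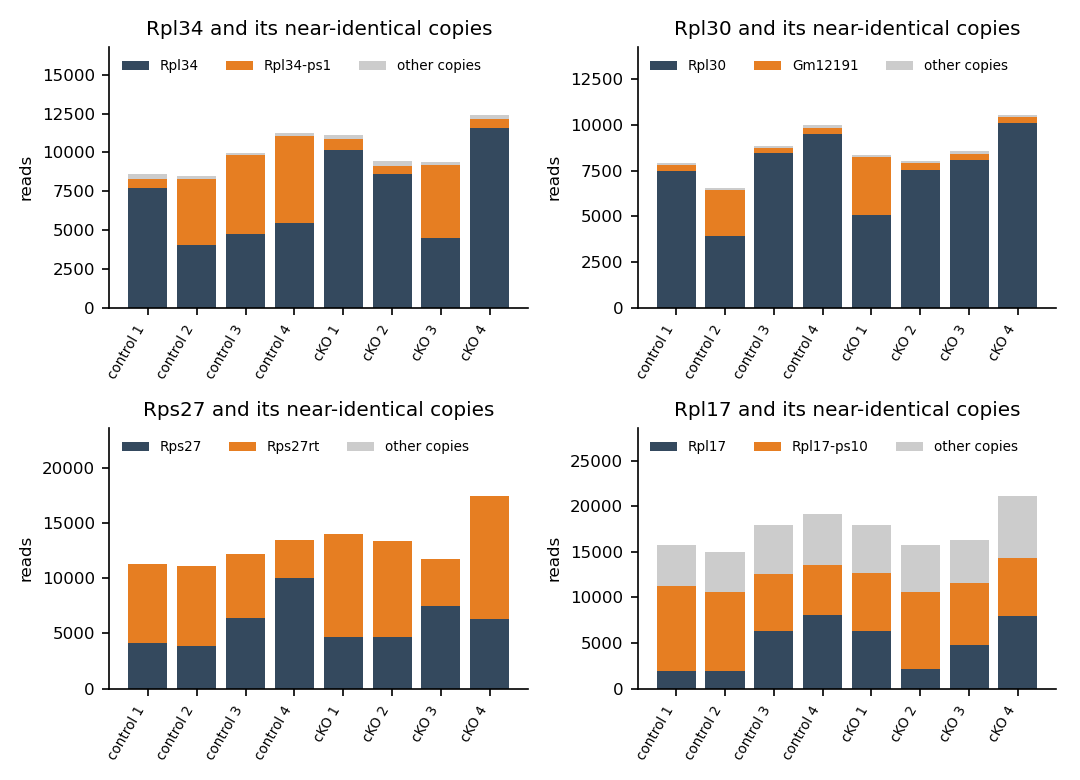
Reads on Rpl34, Rpl30, Rps27 and Rpl17 (dark bars) in each of the 8 libraries, with the near-identical copy that takes the most reads (orange) and all other copies (grey). The split between gene and copy changes from library to library while the height of the stack changes less, as for Rpl34, where the member alone ranged 2.36-fold after scaling to library totals and the sum 1.22-fold.

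In 74 groups of copies, the member of 8 ranged more than 2-fold over the libraries after scaling to library totals, and the sum of 2 did. Those 2 were Rpl35a and Rps27a. Rpl35a, a large-subunit protein whose human gene is mutated in some patients with Diamond-Blackfan anaemia, had the largest difference and the highest coefficient of variation over the controls, 98.8%. It lay at 8.43, 8.09, 84.7 and 47.2 FPKM in control libraries 1 to 4 and at 39.3, 63.9, 78.5 and 76.3 FPKM in cKO libraries 1 to 4. Control libraries 1 and 2 stood far below the other 6, and control library 3 was the highest of all. The log2 fold change was 1.38 (SE 0.7, limma adjusted p = 0.374), and after summing with 14 copies it was 0.59 (adjusted p = 0.436), with 1993, 1715, 5400 and 4123 reads against 3817, 4090, 4811 and 5341.

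Rps27a, which is made as a fusion with ubiquitin, was at 107, 103, 196 and 199.8 FPKM in control libraries 1 to 4 and at 112, 247, 382 and 137 FPKM in cKO libraries 1 to 4. The highest values were those of cKO libraries 3 and 2, and the other 2 libraries labelled cKO lay within the controls. Its log2 fold change was 0.43 (limma adjusted p = 0.646), and 0.37 after summing, and its sum still ranged 3.09-fold. With all copies summed, 3 of 81 members lay past 0.3 on the log2 scale, against 7 of 82 on their own reads, and limma called 0 at an adjusted p under 0.05 (1.0% of all genes). At an unadjusted p under 0.05 there were 2 higher, Rps27l and Rps28 (8.95% of all genes), and 0 lower (7.66%). Members and copies together took 7.08 ± 0.751% of reads in control and 7.07 ± 0.486% in cKO libraries.

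Exons of 19 members overlap a gene on the opposite strand. For 5 of them such genes together had over 5% of the member's reads, Rpl28 (14.5%) with Ube2s, Rps28 (12.5%) with Kank3, Rpl35 (10.6%) with Arpc5l and Wdr38, Rpl31 (7.33%) with Tbc1d8 and Rps25 (7.08%) with Trappc4 and Ccdc84. The strand setting of the read counting is not stated, so the values of these 5 are uncertain. Some members are also overlapped on the same strand, among them Rps10 by Gm49804, Rpl24 by Gm28037, Rpl36al by Gm49383 and Rpl13a by Gm45713. Gm28037 had 2 reads over the 8 libraries and the other overlapping genes named had 0. How shared reads were counted is not given, so the low levels of Rps10, Rpl24, Rpl36al and Rpl13a are uncertain as well.

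Ribosomal protein genes also carry small nucleolar RNAs, the guides of ribosomal RNA modification, in their introns. Of the 85 members, 30 (35.3%) held 58 annotated snoRNA genes on their own strand, against 1.77% of the 12336 protein-coding genes fitted. Rpl4 held 5 and Rpl13a held 4. The annotated snoRNAs themselves cannot be followed well in libraries of this kind, and no value of theirs is compared here.

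The start sites were examined for the TOP motif, the sequence feature by which these mRNAs are controlled together. RefSeq promoters of GRCm38.p6 gave a start for 65 of the 85 members, and windows of 30 bases, 15 on each side of the start, were searched for a run of 7 or more C or T. On the gene's strand, 31 of 65 members (47.7%) had such a run, 47.5% of the large and 48.0% of the small subunit, against 18.2% of 16583 protein-coding genes. On the opposite strand, read as a run of A or G, it was 4.62% of members against 19.5% of genes. A start at C followed by 4 or more C or T was found in 13 members (20%) against 2.19% of genes. A RefSeq start can differ from the start used in this tissue, and only 30 of the 65 lay within 20 bases of the start in the deposited table.

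The windows below are those of Rpl15, Rpl35, Rps6, Rps18 and Rps27, picked as examples from those 13 members after the windows were seen, and of Rps27rt, also among the 13, Rps27l and Rps28, whose values were followed above. They are printed 5′ to 3′ on the gene's strand in lower case, the capitals marking the longest run of C and T, or the first of those of equal length. In Rps27rt the run from the start (ctttcc) is as long as the marked one. Rps27l has a run of 9 and Rps28 one of 4.
Rpl15 (chr14:18270972-18271001, minus strand): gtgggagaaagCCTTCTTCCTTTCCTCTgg
Rpl35 (chr2:39005117-39005146, minus strand): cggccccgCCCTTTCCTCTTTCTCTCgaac
Rps6 (chr4:86857353-86857382, minus strand): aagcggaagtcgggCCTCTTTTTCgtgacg
Rps18 (chr17:33955651-33955680, minus strand): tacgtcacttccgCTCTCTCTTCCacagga
Rps27 (chr3:90213634-90213663, minus strand): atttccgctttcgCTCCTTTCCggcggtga
Rps27rt (chr9:114982725-114982754, minus strand): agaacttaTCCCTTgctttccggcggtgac
Rps27l (chr9:66946071-66946100, plus strand): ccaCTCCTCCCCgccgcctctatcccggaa
Rps28 (chr17:33824548-33824577, minus strand): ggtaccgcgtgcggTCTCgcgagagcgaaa
A run is a description of these letters and not a measured start or a site of control. Among the other lists, translation factors and TOP mRNAs had the run in 5 of 11 genes (45.5%), mitochondrial ribosomal protein genes in 15.9%, ribosome assembly genes in 11.4% and RNA polymerase I genes in 6.67%. Other initiation and termination factors had it in 0 of 12 genes. The run of A or G on the opposite strand was found, in the same order, in 27.3, 14.5, 22.7, 13.3 and 16.7%. Of all protein-coding genes 19.5% had it.

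Fau and Rack1, which lie outside the naming rule, also encode proteins of the cytosolic ribosome. Fau, made as a fusion with a ubiquitin-like protein, averaged 602 FPKM, with a log2 fold change of −0.11 (limma adjusted p = 0.795), and Rack1, a scaffold on the small subunit, averaged 301 FPKM, with 0.12 (adjusted p = 0.584).

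The genes around ribosome production likewise gave 0 calls at an adjusted p under 0.05, by limma and by limma-voom. Elongation factors and other TOP mRNAs had log2 fold changes above 0 in 16 of 16 genes, with a median of 0.09 and 2 (Eif3e and Eif4b) higher at an unadjusted p under 0.05, while limma-voom, by which the median of all genes was −0.06, had 12 of 16 above 0, a median of 0.03 and 0 at an unadjusted p under 0.05. By either, 16 of 16 lay above the median of all genes. Of all genes 50.2% were above 0 by limma and 38.7% by limma-voom. At an unadjusted p under 0.05, 8.85% of all genes were higher by limma and 5.62% by limma-voom. Eef1a1, the elongation factor that brings aminoacyl-tRNA to the ribosome, was the most abundant at 3898 ± 219.9 FPKM in control and 4189.5 ± 147 FPKM in cKO libraries. The control values were 3661, 3771, 4023 and 4138 FPKM and the cKO values 4051, 4251, 4089 and 4367 FPKM, with overlap. Tpt1 averaged 1201 and 1248 FPKM. Eif3e, a subunit of the initiation factor that prepares the small subunit, did not overlap, at 30.1 ± 2.38 against 35.4 ± 2.74 FPKM (log2 fold change 0.23, adjusted p = 0.195), and Eif4b, a cofactor of the initiation helicase, had 0.19 (adjusted p = 0.257). Of 14 other initiation and termination factors, 0 had an unadjusted p under 0.05 by limma or limma-voom, with medians of 0.03 and −0.03, Eif5a and Eif1 being the most abundant and Etf1 (0.10) and Abce1 (0.11) having the lowest p.

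Of 52 fitted genes of ribosome assembly in the nucleolus, 15 (28.8%) had a log2 fold change above 0, against 50.2% of all genes. The median was −0.05, and 6 were lower and 0 higher at an unadjusted p under 0.05, where 7.53% of all genes were lower and 8.85% higher. By limma-voom 13 were lower (12.3% of all genes) and 0 higher (5.62%), with a median of −0.12 against −0.06 over all genes. No test of the list as a whole was made. Nop2, a methyltransferase of the large ribosomal RNA, gave 35.3, 31.1, 32.1 and 34.2 FPKM in control libraries 1 to 4 and 25.2, 28.5, 29.8 and 27.8 FPKM in cKO libraries 1 to 4. The groups did not overlap (log2 fold change −0.25, SE 0.07, limma adjusted p = 0.137). Rrp9, which binds the U3 snoRNA, was at 15 ± 0.84 against 13.0 ± 0.716 FPKM without overlap (−0.20, adjusted p = 0.18). Npm1, the most abundant of the list, had 0.06, and Eif6, which keeps the subunits apart, had −0.05.

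Of 15 genes of RNA polymerase I, which transcribes the ribosomal RNA precursor, 1 was higher (Taf1d, 0.20, adjusted p = 0.191) and 2 were lower at an unadjusted p under 0.05, among them Polr1e (−0.19, adjusted p = 0.257), and limma-voom had 0 higher and 3 lower. The most abundant, Polr1d and Ubtf, had 0.04 and 0.03. Of 18 genes of growth signalling to ribosome synthesis, 1 was higher and 1 lower at an unadjusted p under 0.05, and 0 and 4 by limma-voom. Of all genes 8.85% were higher and 7.53% lower by limma, and 5.62 and 12.3% by limma-voom. Eif4ebp2, an inhibitor of cap-dependent initiation, was at 37.8 ± 1.17 FPKM in control and 43.6 ± 2.44 FPKM in cKO libraries without overlap (0.20, adjusted p = 0.153). Mtor, the kinase of mTORC1, was at 5.6 ± 0.556 and 4.72 ± 0.316 FPKM (−0.20, adjusted p = 0.245). Myc, a transcriptional activator of ribosome production, had −0.09 and Eif4ebp1 −0.16.

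Mitochondrial ribosomal protein genes, which serve the separate ribosome of that organelle, had 76 of 78 members fitted, a median of 0.06 with 60 of 76 above 0, and 4 higher (8.85% of all genes) and 0 lower (7.53%) at an unadjusted p under 0.05. By limma-voom 40 of 76 (52.6%) were above 0, against 38.7% of all genes, with 3 higher (5.62% of all genes) and 2 lower (12.3%), and 59 of 76 lay above the median of all genes, where 60 did by limma. Mrps18b was at 9.31, 9.42, 9.31 and 9.79 FPKM in control libraries 1 to 4 and at 10.4, 11.8, 11.7 and 12.1 FPKM in cKO libraries 1 to 4, without overlap (0.25, SE 0.06, adjusted p = 0.0985). Mrps6 had 0.26 (adjusted p = 0.173). The most abundant, Mrps21 and Mrpl52, had 0.16 and −0.06, with overlapping groups.

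Milk genes took more of the reads in the libraries labelled cKO, while the mean ribosomal share differed by less than the spread between mice. Of 7 milk genes, 4 rose in the libraries labelled cKO by limma: Csn1s2a (log2 fold change 1.43, adjusted p = 0.0377), Csn2 (1.02, 0.0461), Wap (2.25, 0.034) and Glycam1 (2.24, 0.0339), and limma-voom called 6. With any 1 of the 8 libraries left out limma called 0 of them, except Csn1s2a without cKO replicate 1 (adjusted p = 0.0459), while the 4 stayed higher at an unadjusted p of 0.00161 or less. Without a filter 0 were called, and with the replicate block Wap was not (adjusted p = 0.0539). Their summed level was 4278, 4720.4, 6152 and 6486 FPKM in control libraries 1 to 4 and 10387, 11354, 13225 and 18872 FPKM in cKO libraries 1 to 4, without overlap. Milk genes took 2.68 ± 0.406% of reads in control and 5.85 ± 1.32% in cKO libraries. The genes of the mitochondrial genome took 1.83 ± 0.0496% and 2.2 ± 0.0857%, also without overlap, with mt-Co1 the most abundant and 7 of 12 higher at an unadjusted p under 0.05 (8.85% of all genes), where limma called 0 and limma-voom 1 (mt-Co1) at an adjusted p under 0.05.

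With milk and mitochondrial genome genes taken out of the denominator, the ribosomal protein genes took 6.74 ± 0.788% in control and 6.99 ± 0.583% in cKO libraries, again within the spread between mice. Other cells' markers moved too: all 7 macrophage markers (median −0.41), all 3 fitted of 5 B cell markers (−1.34) and all 5 endothelial markers (−0.22) had log2 fold changes under 0 in the libraries labelled cKO. Of these, 4, 3 and 2 had an unadjusted p under 0.05 by limma, which called 0 at an adjusted p under 0.05, and 5, 3 and 3 by limma-voom, which also called 0. Of all genes 7.53% were lower by limma and 12.3% by limma-voom, and 8.85 and 5.62% higher. Summed B cell markers were at 12.9, 4.45, 26.9 and 2.63 FPKM in control libraries and at 1.36 to 2.25 FPKM in cKO libraries, led by Cd79a, and summed macrophage markers, led by Lyz2, at 383, 281, 293 and 313 FPKM against 286, 221, 171 and 252 FPKM. T cell markers had a median of −0.44 (led by Lck), fibroblast markers −0.33, erythroid markers −0.38 (led by Hba-a1) and adipocyte markers 0.46 (led by Fabp4), with 1, 0 and 2 lower and 2 higher at an unadjusted p under 0.05 by limma and 2, 0 and 3 lower and 2 higher by limma-voom, and 0 calls at an adjusted p under 0.05 by either. The myoepithelial and luminal lists had medians of 0.03 and 0.01, with members that went both ways. At an unadjusted p under 0.05 limma had 1 myoepithelial marker higher (Oxtr, 0.85) and 2 lower (Krt14, −0.39, and Trp63, −0.42), and 1 luminal marker higher (Elf5, 0.82) and 0 lower, and limma-voom had 1 higher and 2 lower, and 1 higher and 1 lower. At an adjusted p under 0.05 limma called 0 of them and limma-voom Oxtr (adjusted p = 0.0358) and Elf5 (0.0168). No marker of any list was at 0 in all 8 libraries. The part of these cells in the values of the ribosomal protein genes was not tested.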

How the data were processed

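The authors mapped the reads of 8 libraries with Hisat2 and deposited FPKM for 55933 genes, the unit of all values used here. The submitters' processing notes name featureCounts 1.5.0-p3, StringTie 1.3.3b and mm9, while the methods name GRCm38. All 85 members have the coordinates of GENCODE vM21 (GRCm38), as do 99.62% of 55394 genes with an identifier there. How the counter treated strand and reads with several placements is not given in the sources used here. Dividing FPKM times gene length by the smallest such value of the library gave whole reads for 100% of values above 0 (tolerance 0.01), and the implied library sizes hold median-of-ratios size factors.

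limma 3.58.1 in R 4.3.3 was fitted to log2(FPKM + 1) with empirical Bayes trend and Benjamini-Hochberg adjustment over the 15143 genes whose mean FPKM reached 0.5. A fold change on this scale understates the change of low genes. Near-identical copies were found with BLAST+ 2.17.0. Python 3.11.15, pandas 2.3.3, numpy 2.4.6, scipy 1.17.1 and matplotlib 3.10.9 served the rest, and the fit was tested on simulated data.

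The members and lists were chosen with earlier results of these data known. Named members were the 5 with the highest mean and the 5 with the largest absolute log2 fold change in each subunit, any member called, paralog copies with their parents, and the members with the highest and lowest coefficient of variation in the controls. From each list, genes called by the test were named, or otherwise the 2 with the lowest p and the 2 with the highest mean. Rpl21, Rpl24, Rpl30, Rpl13a and Rpl7a, the members overlapped by other genes and those with printed start sites were named after their values were seen. Alternatives were other pseudocounts, filters, scalings, tests and blocks, each library left out in turn, and sums over copies. Some genes that these rules take in are not reported here.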

Additional observations from a re-analysis of the deposited data

Results flagged for a closer look

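In each group of 4 libraries, the gap between the highest or lowest library and its neighbour was divided by the group's whole range, and values above Dixon's critical value for 4 samples at the 95% level were picked out. This was done for 101 quantities in 200 groups, where chance alone picks out about 1 group in 20, or 10 of 200. It found 5, no more than chance gives.

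None of the 5 is a ribosomal protein gene or the ribosomal share of reads. Control library 4 had the most reads on genes of its group, 18778823, with a ratio of 0.92. For Polr1d, a subunit shared by RNA polymerases I and III, cKO library 4 was at 33.5 FPKM and the other 3 at 26.5 to 27.0 FPKM (0.92). Wap, a milk protein gene, was at 323 FPKM in cKO library 4 and at 128 to 148 FPKM in the other 3 (0.898). The globin genes were highest in cKO library 1, Hba-a1 at 18.9 FPKM with the others at 10.5 to 11.2 FPKM (0.909) and Hbb-bs at 3.98 FPKM with the others at 1.74 to 1.97 FPKM (0.897). The controls lay at 16.2 to 20.6 FPKM for Hba-a1 and 2.18 to 4.65 FPKM for Hbb-bs, so cKO library 1 was within the controls and the other 3 cKO libraries were below them. Red cells were removed in the preparation, and the cause was not tested.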

How the results depend on the processing

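The count of members called at an adjusted p under 0.05 was 0 in 22 of 23 alternatives. With a block that parts replicates 1 and 2 from 3 and 4 (a set block) it was 1 (Rps27l, adjusted p 0.0428, against 0.0428 to 0.358 over all its alternatives). At an unadjusted p under 0.05, the 3 higher members (8.85% of all genes) became 5 under TPM scaling without milk genes (6.87%), 5 with the gene length trend removed (9.42%), 9 with the replicate block (11.1%), 8 with that block and the length trend removed (11.0%), and 9 with the set block (11.9%). The cause was not tested. Same-numbered libraries correlated at 0.08 to 0.137, 3 of 4 pairs over 0.1, and 3 of 8 libraries correlated best with their own number, so the numbers were not taken to pair the mice, and the replicate block changed no adjusted call of a member.

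Leaving out 1 library in turn gave 0 to 0 members called, 2 to 4 higher and 0 to 1 lower at an unadjusted p under 0.05. The lower one was Rps10 (log2 fold change −0.17) without cKO replicate 3. The median log2 fold change of the members ranged from 0.004 (without control replicate 2) to 0.123 (without control replicate 3), and the difference in share of reads from −0.23 to 0.23 percentage points, lowest without control replicate 2 and highest without control replicate 3. The other alternatives gave medians of 0.003 to 0.065 and share differences of −0.077 to 0.25. All 10 members named for their difference, and Bmpr1a, kept their sign in all 23, but their size moved. With 1 library left out, the log2 fold change of Rpl35a ran from 0.90 (without control replicate 2) to 1.98 (control replicate 3), of Rpl17 from 0.05 (control replicate 1) to 0.72 (cKO replicate 2), of Rps27rt from 0.20 (control replicate 4) to 0.72 (cKO replicate 3), of Rps27a from 0.11 (cKO replicate 3) to 0.70 (cKO replicate 1), of Rpl39 from 0.16 (cKO replicate 4) to 0.35 (cKO replicate 1), of Rps12 from 0.10 (control replicate 2) to 0.28 (control replicate 4) and of Bmpr1a from 0.07 (control replicate 3) to 0.19 (control replicate 2).

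Over all genes, calls numbered 135 in the fit reported and 442 with the set block, 268 by limma-voom, 266 over protein-coding genes alone, 54 and 50 with the replicate block with and without the length trend removed, 10 without a filter and 0 to 78 with 1 library left out. At an unadjusted p under 0.05, 1340 genes were higher and 1140 lower as reported, 789 and 1657 under TPM scaling, 1040 and 1311 without milk genes in that sum, 864 and 1792 under library totals and 851 and 1870 by limma-voom. Summing reads with near-identical copies was chosen after seeing the data.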
